A study of Mus musculus with 768 samples.

Results

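Cells of mouse cochlear organoids taken on culture day 7 were compared with cells taken on day 1 of the same culture scheme. The cells were chosen by their labelled day, and 3 limits were then set on each cell. It needed 50000 or more reads on mouse genes and 1500 or more detected genes, and no more than 20% of its reads could be mitochondrial. Of 192 cells picked on day 1, 182 were kept, and of 321 picked on day 7, 301 were kept. The comparison thus rests on 483 of the 513 cells of these days, out of 768 cells in the series. The unit of comparison was the culture, taken as the replicate number that the labels give to each cell. There were 3 day 1 cultures (53, 86 and 43 cells kept, replicates 1 to 3) and 5 day 7 cultures (39, 37, 72, 78 and 75 cells kept, replicates 1 to 5).

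All cells came from the greater epithelial ridge of the cochlea of postnatal day 2 mice that carry Fgfr3-CreERT2, Ai14-tdTomato and Sox2-GFP, and were enriched by flow cytometry before culture. The Cre is under the control of Fgfr3 and the green reporter under that of Sox2. Both days shared 1 medium, DMEM/F-12 with N-2, B-27 and ampicillin, with EGF (20 ng/mL), FGF2 (10 ng/mL) and IGF1 (50 ng/mL) as growth factors. The same medium held the GSK3 inhibitor CHIR99021 (3 µM), the histone deacetylase inhibitor valproic acid (500 µM), 2-phospho-L-ascorbic acid (100 µg/mL) and 616452, an inhibitor of the TGFβ receptor (2 µM). No group without these agents was analysed here, so the comparison is between times in culture under all of them. Trypsin was used to take the organoids apart, and cells were then collected singly by hand with a glass pipette. Libraries were made with SmartSeq2, which covers whole transcripts and has no molecular identifiers. A further group, day 3, entered the fit for its spread, and its levels are given beside some genes. The labels do not say whether the replicates came from separate animals, so p-values measure the spread between these cultures, which may be technical in part.

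The greater epithelial ridge is the tall epithelium on the inner side of the neonatal organ of Corti. It secretes much of the tectorial membrane, the gel that lies over the hair cells, and most of it is lost or remodelled before hearing begins. In the neonate some of its cells can re-enter the cell cycle in culture and form organoids, and supporting cells with active Wnt signalling, marked by Lgr5, are known for the same ability. Retinoic acid, Notch, Wnt, BMP and FGF signals pattern this epithelium in the embryo.

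The reads of a culture, summed over its kept cells, ran from 26391412 to 65109518 on day 1 and from 31839626 to 72483565 on day 7. CPM below is the read count of a gene in such a sum, scaled to a common total with TMM. Values after ± are SDs over the 3 day 1 or the 5 day 7 cultures, and adjusted p values are from edgeR. Full-length reads grow with transcript length, so CPM is compared between days within a gene and not between genes. Sums mix cells, so that fewer cells that express a gene and less RNA of it per cell cannot be told apart in them. Some cultures stood apart. Day 1 replicate 1 was the only day 1 culture in the first of 2 deposited tables, and day 7 replicate 5 the only day 7 culture in the second. Table and day are therefore largely confounded. A cell was counted as proliferating when 3 or more of 6 genes (Tpx2, Ccnb2, Birc5, Cdk1, Top2a, Mki67) were detected after thinning to 200000 reads. Such cells made up 23.1%, 15.3% and 23.7% of the day 1 cultures. On day 7 they made up 59.0%, 40.5%, 87.0%, 74.4% and 25.3%, so that replicate 5 lay close to day 1. The mean share was 20.7% ± 4.68 on day 1 (SD, n = 3) and 57.2% ± 24.9 on day 7 (n = 5; exact permutation test, two-sided, p = 0.0536, where the smallest possible p is 0.0179). Mitochondrial genes took 3.36% ± 0.749 of the reads of the median cell on day 1 (n = 3) and 4.78% ± 1.13 on day 7 (n = 5; exact permutation p = 0.107), with 6.76% in day 7 replicate 5 and at most 4.51% in the other day 7 cultures. Without day 7 replicate 4, whose share of 3.90% was the lowest of day 7, the difference was 1.64 percentage points (exact permutation p = 0.0286). At 200000 reads the median cell had a read in 6294 ± 90.1 genes on day 1 (n = 3) and 5835 ± 535 on day 7 (n = 5; exact permutation p = 0.214).

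**Figure D1:**
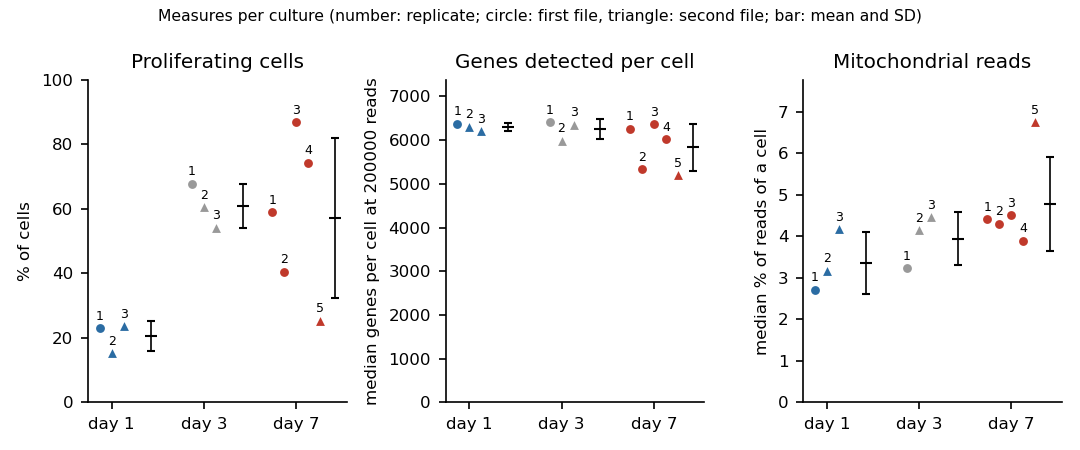
Share of proliferating cells, genes detected per cell and share of mitochondrial reads for each culture of days 1, 3 and 7 (vertical axes in percent of cells, genes, and percent of reads; numbers are replicates, circles the first deposited table, triangles the second, bars the mean and SD). Day 7 replicates 1 to 4 lay between 40.5% and 87.0% proliferating cells, and day 7 replicate 5, at 25.3%, lay near the day 1 cultures.

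Of 17466 genes tested, 1241 (7.11%) differed between day 7 and day 1 at an adjusted p under 0.05 (edgeR quasi-likelihood test, Benjamini-Hochberg adjustment). Higher on day 7 were 620 genes (3.55%) and lower were 621 (3.56%). The counts of called members of each gene list below are to be read beside these shares. The lists were chosen with earlier results of these data known, so an excess over these shares is not independent support. The counts of both directions were alike, but the fitted sizes were not. The median size of the log2 fold change was 1.26 for the genes that rose and 2.06 for those that fell. A change of over 8-fold was fitted for 66 of the genes that rose and for 226 of those that fell, and a change of over 32-fold for 22 and 176. The genes that fell were also read more sparsely. In thinned cells, 151 of them had a read in under 10% of cells on their high day, against 11 of the genes that rose. On the low day 207 and 36 were under 5%, and large fitted folds of such genes rest on few reads. Without regard to the test, the 8 cultures did not overlap in 8.71% of all tested genes with day 7 higher and in 9.06% with day 7 lower. Among called genes the cultures did not overlap for 591 of the 620 and 583 of the 621.

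The genes that rose were on the whole already read on day 1. In cells thinned to 200000 reads, the median gene that rose had a read in 46.3% of day 1 cells and 66.9% of day 7 cells. The median gene that fell had a read in 49.1% of day 1 cells and 20.1% of day 7 cells. Only 3 called genes passed from under 5% of cells on the low day to over 50% on the high day, namely Rarb, the retinoic acid receptor beta, and Ppp1r1b, a protein phosphatase inhibitor, on the way up, and Ecel1, a neuronal endopeptidase-like protein, on the way down. These shares count cells with a read and not cells that express a gene.

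**Figure D2:**
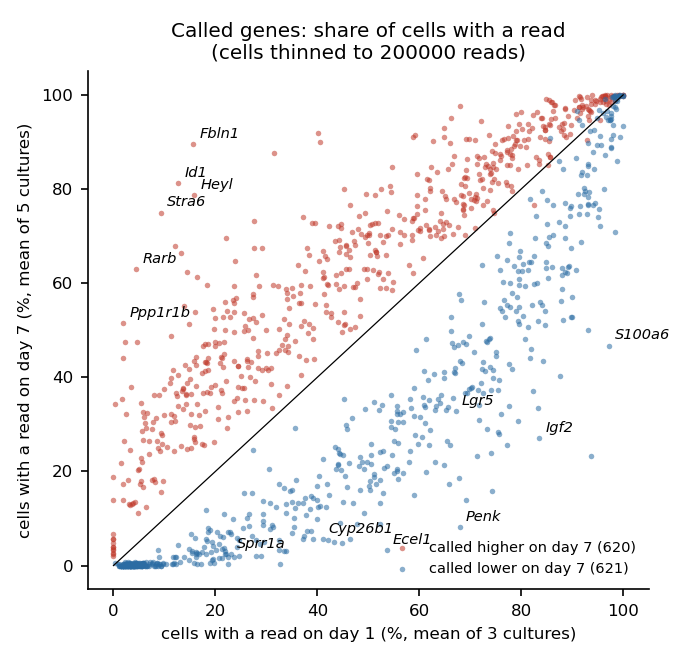
Share of cells with a read on day 1 (horizontal axis, percent, mean of 3 cultures) and day 7 (vertical axis, percent, mean of 5 cultures) for each called gene, in cells thinned to 200000 reads. The line marks equal shares. Ecel1 lies at the lower right, and Rarb and Ppp1r1b at the upper left.

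The count of called genes depended on single cultures. It was 459 without day 1 replicate 1, 555 without day 1 replicate 2, 668 without day 1 replicate 3, 773 without day 7 replicate 3 and 805 without day 7 replicate 4. Only 15 genes were called within the first deposited table, which holds 1 day 1 culture, and 13 within the second, which holds 1 day 7 culture. With the table as a term in the fit, 972 were called. With each cell thinned to 200000 reads before summing, 1276 were called, of which 510 were higher, so that fewer of the calls were rises than in the unthinned sums. When the proliferating cells of all cultures were left out, 164 genes were called (63 higher). Below, lost calls are given for the other 22 alternatives of processing, with their number and the largest adjusted p, or with the setting where at most 2 ended a call. Of the 92 genes named by rule, 45 kept their call in all 22, and 39 were called in the cells not counted as proliferating.

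The largest rises by fold change were in genes near 0 on day 1. Sp8, a zinc finger transcription factor of the developing limb and ear, had 0.0290, 0 and 0.0757 CPM in the day 1 cultures and 45.4, 40.8, 18.1, 13.6 and 12.1 CPM in the day 7 cultures. Its 0.435 CPM on day 3 lay close to day 1. The day 1 value rests on 3 reads, and the ratio of the summed, unscaled counts was 889.7-fold, with a 95% counting interval of 304 to 4316, with an edgeR adjusted p = 0.00277. Ppp1r1b, known as DARPP-32, had 0.842, 0.0158 and 0.0379 CPM on day 1 and 22.7, 33.2, 57.6, 42.4 and 21.9 on day 7. Ppp1r1b changed by 6.94 on the log2 scale (SE 1.03, adjusted p = 0.00306). A read was found in 1.92% of day 1 cells and 51.5% of day 7 cells. Neither gene had a day 7 culture near the day 1 range.

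Tgm2, a transglutaminase that crosslinks proteins and a classical retinoic acid target, had 0.552, 0.585 and 0.568 CPM on day 1 and 40.9, 63.7, 23.8, 56.9 and 33.5 on day 7. Tgm2 changed by 6.26 on the log2 scale (SE 0.82, adjusted p = 0.00168). Stra6, the cell surface receptor that takes up retinol from its carrier, had 4.76, 5.26 and 2.20 CPM on day 1 and 209, 303, 96.2, 259 and 109 on day 7. Stra6 changed by 5.57 on the log2 scale (SE 0.67, adjusted p = 0.00117). For both genes the 3 day 1 cultures lay within a narrow low band and each day 7 culture lay far above it. Gabrg3, a GABA-A receptor subunit, had 3.17, 0.126 and 0 CPM on day 1 and 79.4, 47, 27.6, 42 and 11.7 on day 7. Gabrg3 changed by 5.25 on the log2 scale (SE 1.18, adjusted p = 0.0216). The lowest day 7 value of Gabrg3 was in replicate 5. Fbln1, the extracellular matrix protein fibulin-1, had 10.0, 3.10 and 11.8 CPM on day 1 and 329, 365, 280.3, 304 and 225 on day 7 (log2 fold change 5.19, SE 0.43, adjusted p = 0.000156), with 106 on day 3. Fbln1 was read in 15.7% of day 1 cells and 89.5% of day 7 cells. Gabrg3 (over cells with Xist and no Y signal and without day 1 replicate 2, p up to 0.104) lost the call in alternatives.

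The largest falls were in genes that had reached 0 or nearly 0 by day 7. Ecel1 had 93.2, 64.6 and 81.7 CPM on day 1 and 0, 0, 0.361, 0.294 and 0.0267 on day 7. Ecel1 changed by −9.01 on the log2 scale (SE 0.93, adjusted p = 0.00057). Sprr1a, a small proline-rich protein of the cornified envelope that is induced in injured epithelia and neurons, had 140.2, 99.7 and 76.6 CPM on day 1 and 0, 0.0330, 1.01, 0.427 and 0 on day 7. Sprr1a changed by −8.37 on the log2 scale (SE 0.95, adjusted p = 0.00103). Prss56, a serine protease, had 72.8, 35.2 and 114 CPM on day 1 and 0, 0, 0.921, 0.648 and 0 on day 7. Prss56 changed by −7.77 on the log2 scale (SE 1.27, adjusted p = 0.00487). In each of these genes, day 7 replicates 3 and 4 held nearly all of the few reads that remained.

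Podn, the leucine-rich proteoglycan podocan, had 59.7, 87 and 24.3 CPM on day 1 and 0, 0, 2.35, 0.0442 and 0.454 on day 7. Podn changed by −6.59 on the log2 scale (SE 1.22, adjusted p = 0.00884). Penk, the precursor of the enkephalin peptides, had 279.6, 194 and 37.3 CPM on day 1 and 2.48, 1.95, 5.18, 2.15 and 5.11 on day 7. Penk changed by −5.64 on the log2 scale (SE 0.59, adjusted p = 0.00057). Penk was read in 67.9% of day 1 cells and 8.18% of day 7 cells. Ptgs2, the inducible cyclooxygenase, had 58.1, 12.9 and 9.84 CPM on day 1 and 0, 0, 0.343, 2.36 and 0.494 on day 7. Ptgs2 changed by −5.32 on the log2 scale (SE 1.28, adjusted p = 0.0283). Among the day 1 cultures of Penk and Ptgs2, replicate 1 was the highest and replicate 3 the lowest, but no day 7 culture reached the lowest of them. On GRCm38, the build for which identifiers and versions match, Ecel1 lies at chr1:87147655-87156521, Sprr1a at chr3:92483952-92485895, Stra6 at chr9:58063788-58153996 and Fbln1 at chr15:85205949-85286535, all protein-coding. Podn (with the replicate block, p 0.0591) and Ptgs2 (3 of 22, p up to 0.123) lost the call in alternatives.

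**Figure D3:**
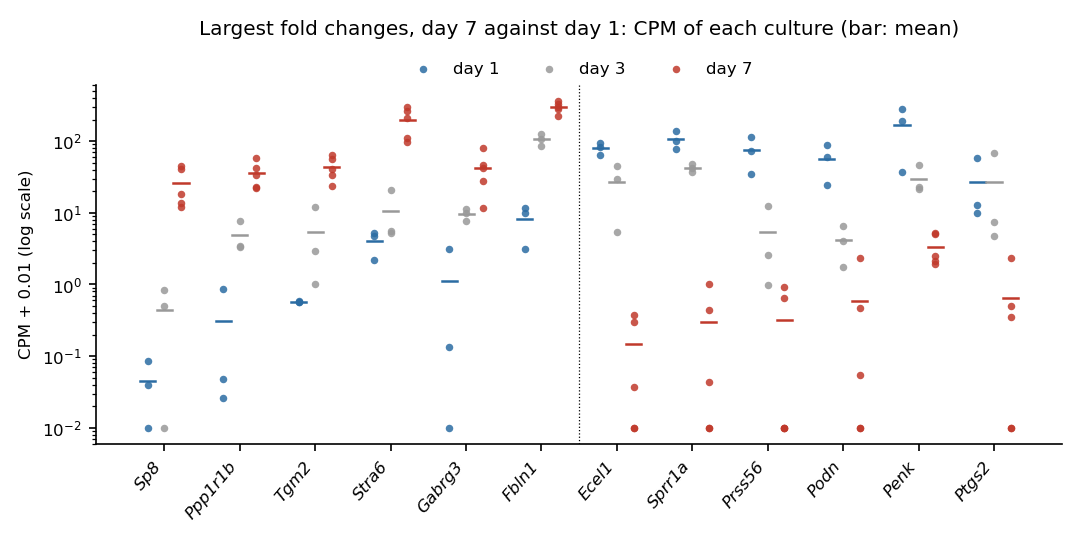
CPM of each culture (log axis, 0.01 added) for the 6 genes with the largest rises and the 6 with the largest falls, with points for cultures of days 1, 3 and 7 and bars for the means. The day 7 points lie above all day 1 points for the genes on the left and below them for those on the right, with day 3 between them in most genes.

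Ranked by the change in CPM rather than in fold, the rises were led by genes of translation, matricellular signalling and protein folding. Cyr61, a secreted matricellular protein and a target of YAP, had 188, 386 and 162 CPM on day 1 and 1649.8, 2902, 903, 1976 and 3339 on day 7. Cyr61 changed by 3.13 on the log2 scale (SE 0.45, adjusted p = 0.00283). Hspa5, the main chaperone of the endoplasmic reticulum, had 1085, 1425 and 1414 CPM on day 1 and 2362, 3108, 2666, 2534 and 3410.2 on day 7. Hspa5 changed by 1.11 on the log2 scale (SE 0.17, adjusted p = 0.00371). No day 7 culture of either gene fell into the day 1 range. Hnrnpk, an RNA-binding protein, rose from 699.6 ± 109 CPM to 1391 ± 195 CPM (log2 fold change 0.99, SE 0.17, adjusted p = 0.00711). Rpl4, a ribosomal protein, rose from 936 ± 110.3 CPM to 1671 ± 308 CPM (log2 fold change 0.84, SE 0.18, adjusted p = 0.0189). Eef1a1, the translation elongation factor, was the largest rise in CPM, from 3917 ± 462 CPM to 6109.5 ± 1024 CPM (log2 fold change 0.64, SE 0.17, adjusted p = 0.0394). Dpysl2, a microtubule-binding protein of growing axons, went from 759 ± 248 CPM to 1763 ± 694 CPM (log2 fold change 1.22, SE 0.33, adjusted p = 0.0469), and its cultures overlapped. Eef1a1, Rpl4 and Hnrnpk have processed pseudogenes with which reads can be shared, so their values are uncertain. Rpl4 (3 of 22, p up to 0.0812), Eef1a1 (17 of 22, p up to 0.143) and Dpysl2 (12 of 22, p up to 0.166) lost the call in alternatives.

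The falls in CPM were led by a noncoding transcript and by matrix proteins. AY036118, annotated as a long intergenic RNA at chr17:39847113-39848035, took 10.85%, 7.457% and 7.591% of the TMM-unscaled reads of the day 1 cultures and 5.572%, 4.094%, 5.397%, 5.203% and 3.731% of the day 7 cultures. It fell by 0.83 on the log2 scale (SE 0.19, edgeR adjusted p = 0.0257). The nuclear RNA Malat1 had 2773, 4006 and 4204 CPM on day 1 and 875, 792, 805, 675 and 2110.1 on day 7. Malat1 changed by −1.80 on the log2 scale (SE 0.39, adjusted p = 0.0176). Tectb, beta-tectorin of the tectorial membrane, had 6628, 11411 and 6885 CPM on day 1 and 360.4, 537, 803, 417 and 1341 on day 7 (log2 fold change −3.59, SE 0.46, adjusted p = 0.00166), with 3622 on day 3. Day 7 replicate 5 was the highest day 7 culture for both Malat1 and Tectb, and it stayed below every day 1 culture. AY036118 (6 of 22, p up to 0.279) and Malat1 (without day 1 replicate 2 and without day 1 replicate 3, p up to 0.0581) lost the call in alternatives.

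Sparc, a collagen-binding matrix glycoprotein, had 2383, 2958 and 2834 CPM on day 1 and 419, 573, 348, 251 and 1063 on day 7. Sparc changed by −2.36 on the log2 scale (SE 0.36, adjusted p = 0.00325). Col2a1, the fibrillar collagen of cartilage and of the tectorial membrane, had 2348, 1722 and 1689 CPM on day 1 and 653, 651, 781, 416 and 763 on day 7. Col2a1 changed by −1.56 on the log2 scale (SE 0.20, adjusted p = 0.00168). Tmsb4x, thymosin beta 4, which binds actin monomers, fell from 2262 ± 615 CPM to 412 ± 91.2 CPM (log2 fold change −2.46, SE 0.23, adjusted p = 0.000282). Tmsb4x also has near copies that can share reads. None of these 3 genes had a day 7 culture within the day 1 range, and each was read in over 90% of the cells of both days.

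Genes of mitosis rose together. Of 40 tested members, 33 were higher on day 7 and none lower, with a median log2 fold change of 2.37 against 0.00 over all genes and against 3.55% of all genes called higher. All 15 cyclins, kinases and checkpoint genes were called, 12 of 17 spindle, kinetochore and cytokinesis genes, and 6 of 8 genes of chromosome structure. The share of proliferating cells, which is read from genes of this list, moved with it, from a mean of 20.7% to 57.2% (exact permutation p = 0.0536). Without the proliferating cells of all cultures 0 of the 40 were called, at a median of 1.23. Those cells were picked by reads in 6 members of this list, so this loss of calls was in part built in. The count was 8 without day 1 replicate 1, 7 without day 1 replicate 2, 19 without day 7 replicate 3 and 19 without day 7 replicate 4, and 12 with the deposited table as a term.

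Ccnb2, cyclin B2, which with Cdk1 drives entry into mitosis, had 1.31, 6.91 and 11.6 CPM on day 1 and 45.2, 135, 178, 124 and 56.9 on day 7. Ccnb2 changed by 4.04 on the log2 scale (SE 0.68, adjusted p = 0.00585). Cdc20, the activator of the anaphase-promoting complex, had 6.86, 7.71 and 33.3 CPM on day 1 and 95.9, 241, 390.2, 248 and 77 on day 7. Cdc20 changed by 3.73 on the log2 scale (SE 0.68, adjusted p = 0.00808). Cenpa, the histone variant of the centromere, had 10.7, 8.09 and 19 CPM on day 1 and 63.9, 115, 232, 127 and 36.9 on day 7. Cenpa changed by 3.19 on the log2 scale (SE 0.55, adjusted p = 0.00681). For each of these genes replicates 1 and 5 were the lowest and replicate 3 the highest of the day 7 cultures. Ube2c, the ubiquitin-conjugating enzyme of the same complex, rose from 24.2 ± 20.9 CPM to 161 ± 94.9 CPM (log2 fold change 2.74, SE 0.61, adjusted p = 0.0214). Plk1, a mitotic kinase, rose from 14.7 ± 12 CPM to 134 ± 86.3 CPM (log2 fold change 3.20, SE 0.62, adjusted p = 0.0111). Mki67, the common proliferation marker, went from 32.9 ± 17.6 CPM to 126 ± 73.5 CPM (log2 fold change 1.95, SE 0.52, adjusted p = 0.0408), and its cultures overlapped. Ube2c (3 of 22, p up to 0.0874), Plk1 (without day 1 replicate 1 and without day 1 replicate 2, p up to 0.0532) and Mki67 (12 of 22, p up to 0.146) lost the call in alternatives.

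The promoters of these genes are shown because the list moved together. Of the 17466 tested genes, 11405 were matched by symbol to RefSeq promoter windows (GRCm38.p6, 250 bases before to 50 bases after the annotated start). In all, 14576 windows were searched, and a gene counted as holding a motif if any of its windows held it. The cell cycle genes homology region, searched as TTTGAA on both strands, was found in 24 of 33 mitosis genes with a window (72.7%). It was found in 14.2% of all tested genes with a window. The CCAAT box, CCAAT on both strands, was found in 27 of 33 (81.8%) and in 42.5% of all such genes. Both motifs were found in 23 of 33 (69.7%) and 6.96%. Among genes called higher that had a window, 26.9% had TTTGAA, and among those called lower 11%. A match is a description of letters and not a site of binding. The printed sequences run from 175 bases before the start to 25 bases from it, 5′ to 3′ on the strand of the gene, with the matches in capitals. Ccnb2 is on the minus strand at chr9:70421530-70421729, Cdc20 on the minus strand at chr4:118437319-118437518 and Cenpa on the plus strand at chr5:30666711-30666910.
Ccnb2: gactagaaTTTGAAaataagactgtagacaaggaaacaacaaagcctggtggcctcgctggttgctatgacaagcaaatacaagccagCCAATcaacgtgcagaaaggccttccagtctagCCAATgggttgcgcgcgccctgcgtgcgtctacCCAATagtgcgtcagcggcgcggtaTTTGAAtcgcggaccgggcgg
Cdc20: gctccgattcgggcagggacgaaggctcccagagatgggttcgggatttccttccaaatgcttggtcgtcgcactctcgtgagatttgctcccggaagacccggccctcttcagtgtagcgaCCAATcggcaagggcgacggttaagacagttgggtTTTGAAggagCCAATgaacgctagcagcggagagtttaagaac
Cenpa: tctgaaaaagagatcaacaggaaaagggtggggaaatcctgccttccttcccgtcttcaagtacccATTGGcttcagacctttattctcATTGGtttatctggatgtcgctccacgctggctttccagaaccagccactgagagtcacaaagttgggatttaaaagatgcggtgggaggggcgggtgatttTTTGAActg
Ccnb2 holds 3 CCAAT boxes, 87, 54 and 21 bases before the start, and Cdc20 holds 2. Cenpa holds 2 CCAAT boxes read on the other strand as ATTGG, and a TTTGAA that begins 16 bases after the start.

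Of 35 tested genes of DNA replication, 12 were higher and none lower, at a median of 0.91, against 3.55% of all genes called higher. Mcm6, a subunit of the replicative helicase, had 94.9, 96.7 and 108 CPM on day 1 and 291, 272, 255, 321 and 121 on day 7. Mcm6 changed by 1.33 on the log2 scale (SE 0.28, adjusted p = 0.0154). Cdca7, a chromatin regulator of S phase, rose from 17.3 ± 4.35 CPM to 71 ± 16 CPM (log2 fold change 2.04, SE 0.30, adjusted p = 0.00306), and the helicase subunit Mcm3 rose from 68.3 ± 7.07 CPM to 206 ± 78 CPM (log2 fold change 1.59, SE 0.34, adjusted p = 0.0167). Rrm1, the large subunit of ribonucleotide reductase, rose from 85 ± 36.7 CPM to 291 ± 133 CPM (log2 fold change 1.77, SE 0.39, adjusted p = 0.0201). Pcna, the sliding clamp, had means of 144 CPM on day 1 and 212 on day 7 (adjusted p = 0.173). The count was 1 without day 1 replicate 1, 2 without day 1 replicate 2, 3 with the deposited table as a term and 1 without the proliferating cells. The E2F motif, searched as TTTGGCGC or TTTCCCGC on both strands, was found in 12 of 29 replication genes with a window (41.4%). Of all tested genes with a window, 3.24% held it. The promoter of Mcm6 (minus strand, chr1:128359681-128359880) holds it 110 and 47 bases before the start, shown in capitals. Mcm6 (3 of 22, p up to 0.0689), Mcm3 (4 of 22, p up to 0.0721) and Rrm1 (4 of 22, p up to 0.0919) lost the call in alternatives.
Mcm6: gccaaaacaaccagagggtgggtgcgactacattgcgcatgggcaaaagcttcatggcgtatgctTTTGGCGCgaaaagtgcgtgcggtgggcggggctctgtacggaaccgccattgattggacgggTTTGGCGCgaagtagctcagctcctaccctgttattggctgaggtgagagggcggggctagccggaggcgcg

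Of 28 regulators of the G1 phase, 4 were higher and 2 lower, against 3.55% and 3.56% of all genes, at a median of 0.48. Cdkn2c, the CDK inhibitor p18, had 0.726, 1.22 and 1.02 CPM on day 1 and 11, 24.8, 25.7, 22.6 and 6.65 on day 7. Cdkn2c changed by 4.19 on the log2 scale (SE 0.59, adjusted p = 0.00266). The CDK inhibitor p57, Cdkn1c, fell from 149 ± 48.5 CPM to 34 ± 17.8 CPM (log2 fold change −2.13, SE 0.37, adjusted p = 0.00707). Cdkn2b, the CDK inhibitor p15 and a target of TGFβ, fell from 12.8 ± 12.2 CPM to 0.740 ± 0.564 CPM (log2 fold change −4.11, SE 1.03, adjusted p = 0.0319). Thus 1 CDK inhibitor rose while 2 fell. Cdk4, the partner of the D cyclins, rose from 417 ± 72.1 CPM to 644 ± 33.3 CPM (log2 fold change 0.63, SE 0.15, adjusted p = 0.029), and Mxd3, a partner of Max, rose from 1.60 ± 1.21 CPM to 11.4 ± 3.10 CPM (log2 fold change 2.84, SE 0.52, adjusted p = 0.00809). Ccnd1, cyclin D1, had means of 555 and 1036 CPM (adjusted p = 0.0834), and Cdkn1a, the inhibitor p21, had 241 and 131 (adjusted p = 0.0851). Among regulators of early tissue growth, 0 of 10 were higher and 2 lower, at a median of 0.08. They were Igf2, a fetal growth factor (from 69.1 ± 14.1 CPM to 8.21 ± 7.95 CPM, log2 fold change −3.08, SE 0.61, adjusted p = 0.0118), and Hmga2, a chromatin protein repressed by let-7 (from 20.9 ± 7.53 CPM to 4.17 ± 3.39 CPM, log2 fold change −2.33, SE 0.62, adjusted p = 0.0407). Cdkn2b (8 of 22, p up to 0.156), Cdk4 (9 of 22, p up to 0.111) and Hmga2 (10 of 22, p up to 0.15) lost the call in alternatives.

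Retinoid genes moved in both directions by role, with 5 of 21 higher and 4 lower, at a median of 0.00. Uptake, synthesis and response genes were among the risers. Aldh1a3, which makes retinoic acid from retinal, had 102, 112 and 127 CPM on day 1 and 601, 748, 739, 1006 and 318 on day 7. Aldh1a3 changed by 2.59 on the log2 scale (SE 0.32, adjusted p = 0.00141). Rarb had 1.92, 3.10 and 0.189 CPM on day 1 and 60.0, 54.4, 40.5, 56.3 and 62.5 on day 7 (log2 fold change 4.94, SE 0.70, adjusted p = 0.00266), and a read in 4.42% and 62.9% of the cells. Stra6 and Tgm2 are described above. Cyp26b1, which degrades retinoic acid, had 33.2, 34.7 and 35.7 CPM on day 1 and 0.124, 2.14, 0.524, 0.486 and 1.71 on day 7. Cyp26b1 changed by −5.11 on the log2 scale (SE 0.73, adjusted p = 0.00278). Cyp26b1 thus moved opposite to Aldh1a3, and neither overlapped between the days. Crabp2, which carries retinoic acid to the nucleus, fell from 228 ± 39.2 CPM to 94.7 ± 30.9 CPM (log2 fold change −1.27, SE 0.28, adjusted p = 0.0196). Sdr16c5, a retinol dehydrogenase, fell from 12 ± 7.88 CPM to 1.00 ± 0.738 CPM (log2 fold change −3.56, SE 0.84, adjusted p = 0.0264). Rbp4, the secreted retinol carrier, fell from 1.42 CPM to 1 read over all day 7 cells, lower by a ratio of 379, with a 95% counting interval of 67.3 to 15069.8 (adjusted p = 0.0455). Dhrs3, which reduces retinal, had means of 9.41 and 41.8 CPM without overlap, but did not pass the test (adjusted p = 0.0618). The count of lower members was 2 without day 1 replicate 1, 1 without day 1 replicate 2 and 2 without day 7 replicate 4. Crabp2 (without day 1 replicate 2, p 0.0784), Sdr16c5 (6 of 22, p up to 0.106) and Rbp4 (13 of 22, p up to 0.388) lost the call in alternatives.

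The promoter of Rarb is shown because the gene is the known example of a direct repeat read by retinoic acid receptors. This repeat, known as DR5, was searched on both strands as 2 copies of the receptor core with 5 bases between them, a search added after the values were seen. It was found in 6 of the 11405 genes with a window (0.0526%), and Rarb was the only match among 15 retinoid genes with a window. The match in capitals begins 53 bases before the start, on the minus strand at chr14:16575452-16575651.
Rarb: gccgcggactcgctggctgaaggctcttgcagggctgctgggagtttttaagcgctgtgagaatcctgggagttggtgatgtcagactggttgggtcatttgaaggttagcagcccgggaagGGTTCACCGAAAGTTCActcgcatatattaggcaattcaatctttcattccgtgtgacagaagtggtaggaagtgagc

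In the Notch list 4 of 20 tested members were higher and 2 lower, against 3.55% and 3.56% of all genes. The median was 0.26, and the effectors held 3 of the 4 rises. Heyl, a transcriptional repressor induced by Notch, had 2.12, 10.4 and 27.8 CPM on day 1 and 272, 385, 117, 278 and 173 on day 7. Heyl changed by 4.20 on the log2 scale (SE 0.70, adjusted p = 0.00561). Hey1, of the same family, had 83.7, 107 and 110.1 CPM on day 1 and 363, 459, 202, 246 and 379 on day 7. Hey1 changed by 1.72 on the log2 scale (SE 0.30, adjusted p = 0.00731). Nrarp, a feedback inhibitor of Notch, rose from 1.03 ± 0.813 CPM to 7.31 ± 2.91 CPM (log2 fold change 2.83, SE 0.69, adjusted p = 0.0294). The receptor Notch1 rose from 102 ± 15.9 CPM to 204 ± 38.1 CPM (log2 fold change 0.99, SE 0.20, adjusted p = 0.012). Dlk2, a delta-like membrane protein, fell from 5.78 ± 3.46 CPM to 0.163 ± 0.354 CPM (log2 fold change −5.02, SE 1.26, adjusted p = 0.033), and Hes6, an inhibitor of Hes1, fell from 68.2 ± 9.01 CPM to 38.8 ± 6.66 CPM (log2 fold change −0.81, SE 0.21, adjusted p = 0.0368). No ligand was called, and the ligand Jag1 (188 and 394 CPM, adjusted p = 0.0752) and the effector Hes1 (58 and 121 CPM, adjusted p = 0.151) did not pass the test. Nrarp (10 of 22, p up to 0.107), Notch1 (over cells with Xist and no Y signal and without day 1 replicate 3, p up to 0.0608) and Dlk2 (8 of 22, p up to 0.108) lost the call in alternatives. Hes6 (9 of 22, p up to 0.132) lost the call in alternatives.

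In the Wnt list 6 of 40 were higher and 3 lower, against 3.55% and 3.56% of all genes, at a median of 0.11. Of 13 targets and feedback genes, 5 were higher and 1 lower. Lef1, a transcription factor that binds beta-catenin, had 1.22, 0.205 and 0.416 CPM on day 1 and 20.0, 32.7, 9.10, 16.7 and 7.53 on day 7. Lef1 changed by 4.82 on the log2 scale (SE 0.79, adjusted p = 0.0052). The feedback inhibitors Nkd1 and Nkd2 rose from 12.4 ± 0.915 CPM to 59 ± 20.4 CPM (log2 fold change 2.26, SE 0.40, adjusted p = 0.00723) and from 0.378 ± 0.361 CPM to 13.8 ± 8.49 CPM (log2 fold change 5.12, SE 0.99, adjusted p = 0.0108). Tcf7 rose from 5.08 ± 3.39 CPM to 20.1 ± 9.73 CPM (log2 fold change 1.98, SE 0.51, adjusted p = 0.0369), and the receptor-like Tnfrsf19 rose from 234 ± 36.6 CPM to 523 ± 131 CPM (log2 fold change 1.16, SE 0.30, adjusted p = 0.0384). The ligand Wnt7a rose from 62.2 ± 8.19 CPM to 156 ± 20.5 CPM (log2 fold change 1.32, SE 0.18, adjusted p = 0.0023). The exception was Lgr5, a Wnt target and receptor of R-spondin, which had 119, 116 and 188 CPM on day 1 and 24, 28.9, 39.8, 15.6 and 25.8 on day 7. Lgr5 changed by −2.39 on the log2 scale (SE 0.30, adjusted p = 0.00158). Axin2, another target and feedback gene, had means of 11.9 and 30.0 CPM without overlap but did not pass the test (adjusted p = 0.0904). The secreted inhibitors Frzb and Wif1 fell, Frzb from 60.8 ± 12.9 CPM to 3.75 ± 1.87 CPM (log2 fold change −4.02, SE 0.48, adjusted p = 0.00117) and Wif1 from 35.8 ± 11 CPM to 9.56 ± 1.76 CPM (log2 fold change −1.90, SE 0.34, adjusted p = 0.00743). The TCF motif, CTTTGAT on both strands, was found in 4 of 24 Wnt genes with a window (16.7%) and in 3.1% of all genes with one. The 4 were Sp5, Tnfrsf19, Wnt11 and Wnt5b, and of the 8 called Wnt genes with a window only Tnfrsf19 held the motif. The TCF motif shares the letters TTTGA with the homology region above. Lef1 (over cells with Xist and no Y signal, p 0.101), Nkd2 (over cells with Xist and no Y signal, p 0.0794) and Tcf7 (11 of 22, p up to 0.126) lost the call in alternatives. Tnfrsf19 (9 of 22, p up to 0.133) and Wif1 (over cells with Xist and no Y signal, p 0.189) lost the call in alternatives.

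In the BMP and TGFβ list 5 of 44 were higher and 4 lower, against 3.55% and 3.56% of all genes. The median was −0.35. The risers included the Id genes, which encode inhibitors of bHLH factors and are direct BMP targets. Id1 had 5.52, 2.51 and 7.65 CPM on day 1 and 151, 120.4, 53, 56.3 and 173 on day 7. Id1 changed by 4.42 on the log2 scale (SE 0.52, adjusted p = 0.00117). Id3 had 22.1, 27.8 and 48.7 CPM on day 1 and 649, 493, 189, 161 and 546 on day 7. Id3 changed by 3.63 on the log2 scale (SE 0.56, adjusted p = 0.00376). Id2 rose from 60.1 ± 24 CPM to 284 ± 93.8 CPM (log2 fold change 2.24, SE 0.35, adjusted p = 0.0039). No day 7 culture of Id1, Id2 or Id3 fell into the day 1 range. The ligand Bmp7 rose from 119 ± 28 CPM to 343 ± 92.5 CPM (log2 fold change 1.53, SE 0.26, adjusted p = 0.00667), and the activin subunit Inhba rose from 8.43 ± 5.76 CPM to 59.3 ± 28.7 CPM (log2 fold change 2.81, SE 0.61, adjusted p = 0.0185). Fst, follistatin, which binds activin and is known from the medial side of the cochlea, had 138, 55.6 and 77.8 CPM on day 1 and 0.960, 1.85, 3.22, 0.206 and 7.21 on day 7. Fst changed by −5.06 on the log2 scale (SE 0.79, adjusted p = 0.0039). Tgfb2 fell from 673 ± 114 CPM to 253 ± 82.3 CPM (log2 fold change −1.41, SE 0.24, adjusted p = 0.00636), and the activin receptor Acvr2a fell from 30.0 ± 14.4 CPM to 9.71 ± 3.44 CPM (log2 fold change −1.63, SE 0.38, adjusted p = 0.0254). Bmp2 fell from 1.69 CPM to 1 read over the day 7 cells, lower by a ratio of 342, with a 95% counting interval of 60.6 to 13596 (adjusted p = 0.00816). Inhba (3 of 22, p up to 0.0636), Acvr2a (over cells with Xist and no Y signal and without day 1 replicate 1, p up to 0.229) and Bmp2 (over cells with Xist and no Y signal, p 0.0704) lost the call in alternatives.

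**Figure D4:**
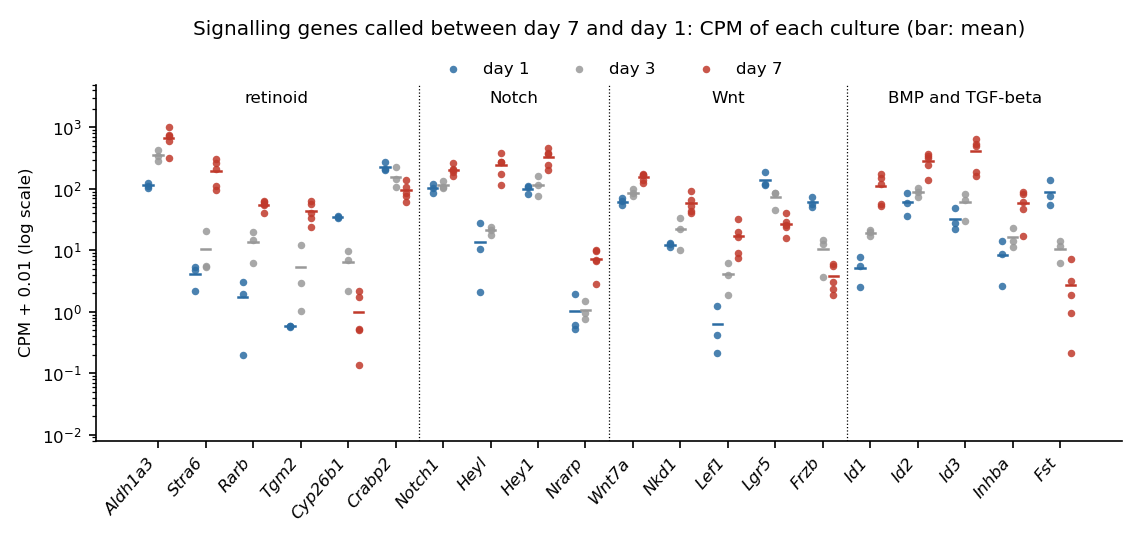
CPM of each culture (log axis, 0.01 added) for 20 called genes of the retinoid, Notch, Wnt, and BMP and TGFβ lists, with points for cultures of days 1, 3 and 7 and bars for the means. Effectors such as Heyl, Lef1 and Id1 lie higher on day 7, and Cyp26b1, Lgr5, Frzb and Fst lie lower.

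In the list of EGF, FGF and IGF signalling 2 of 41 were higher, near the 3.55% of all genes, and 6 were lower, against 3.56% of all genes, at a median of −0.42. Igf1r, the receptor of the IGF1 in the medium, fell from 78.8 ± 22.4 CPM to 28.9 ± 7.17 CPM (log2 fold change −1.45, SE 0.24, adjusted p = 0.00565). The ligand Igf1 fell from 4.30 ± 2.46 CPM to 0.0927 ± 0.0617 CPM (log2 fold change −5.51, SE 0.94, adjusted p = 0.00636), and Igfbp3, which binds IGFs outside the cell, fell from 668 ± 101 CPM to 244 ± 49.8 CPM (log2 fold change −1.45, SE 0.19, adjusted p = 0.00174). With Igf2, 4 of the 6 lower members belonged to the IGF branch. Erbb4, a neuregulin receptor, fell from 1.39 CPM to 1 read (adjusted p = 0.0239). Of the ERK feedback genes, Spry1 rose from 41 ± 2.66 CPM to 153 ± 23.7 CPM (log2 fold change 1.90, SE 0.19, adjusted p = 0.000379), while Spred3 fell from 17 ± 1.16 CPM to 3.74 ± 1.71 CPM (log2 fold change −2.19, SE 0.40, adjusted p = 0.00816). Of 21 YAP and TEAD genes, 2 targets rose and none fell, against 3.55% and 3.56% of all genes. The median of these genes was −0.05. The 2 targets were Cyr61 and Amotl2 (from 29.3 ± 14.1 CPM to 117 ± 48.6 CPM, log2 fold change 2.00, SE 0.45, adjusted p = 0.0211), and the target Ctgf went from 813 ± 308 CPM to 2303 ± 1193 CPM without passing the test (adjusted p = 0.11). Erbb4 (8 of 22, p up to 0.203), Spred3 (with the replicate block, p 0.0517) and Amotl2 (3 of 22, p up to 0.118) lost the call in alternatives.

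Immediate early genes, which are transcribed within minutes of a stimulus, were higher on day 7 in 10 of 26 cases and lower in none, at a median of 1.68. Fos, an AP-1 subunit, had 28.4, 127 and 53.9 CPM on day 1 and 746, 751, 499, 363 and 657 on day 7. Fos changed by 3.11 on the log2 scale (SE 0.58, adjusted p = 0.0088). Egr1, a zinc finger factor induced through ERK, had 141, 248 and 145 CPM on day 1 and 595, 988, 387, 780.4 and 895 on day 7. Egr1 changed by 2.03 on the log2 scale (SE 0.33, adjusted p = 0.00506). Neither gene overlapped between the days. Arc, known from synapses, rose from 10.8 ± 5.19 CPM to 127 ± 62.2 CPM (log2 fold change 3.56, SE 0.62, adjusted p = 0.00699). Fosb rose from 3.36 ± 0.792 CPM to 35.4 ± 14.3 CPM (log2 fold change 3.39, SE 0.46, adjusted p = 0.00223), Egr2 from 6.85 ± 4.98 CPM to 169.9 ± 123 CPM (log2 fold change 4.62, SE 0.94, adjusted p = 0.0138) and Ier2 from 70.8 ± 26.5 CPM to 313 ± 75.5 CPM (log2 fold change 2.15, SE 0.30, adjusted p = 0.00243). Jun, Junb, Btg2 and Zfp36 also passed the test as higher. The count was 6 without day 1 replicate 1, 6 without day 1 replicate 3 and 8 without the proliferating cells. Both days went through the same dissociation by label, and its time within the range of the labels is not given per culture. Egr2 (without day 1 replicate 1 and without day 1 replicate 3, p up to 0.0706), Junb (without day 1 replicate 1 and without day 1 replicate 3, p up to 0.0642) and Btg2 (4 of 22, p up to 0.115) lost the call in alternatives. Zfp36 (11 of 22, p up to 0.146) lost the call in alternatives.

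Genes of an early injury-type epithelium fell, with 9 of 26 lower and 1 higher, at a median of −1.57, against 3.56% of all genes called lower. The list was chosen with earlier results of these data known, so this excess is a description and not independent support. S100a6, a calcium-binding protein, had 242, 380.4 and 322 CPM on day 1 and 12.6, 12.5, 18.6, 10.8 and 29.9 on day 7. S100a6 changed by −4.22 on the log2 scale (SE 0.34, adjusted p = 0.000149). Plaur, the urokinase receptor, had 18.5, 26.6 and 8.40 CPM on day 1 and 1.15, 1.39, 1.84, 0.957 and 0.654 on day 7. Plaur changed by −3.90 on the log2 scale (SE 0.52, adjusted p = 0.00193). Both lay below the day 1 range in every day 7 culture. Hbegf, an EGF receptor ligand, fell from 35.4 ± 3.87 CPM to 14.3 ± 3.38 CPM (log2 fold change −1.30, SE 0.24, adjusted p = 0.0088). Tnfrsf12a, the receptor of TWEAK, fell from 189.9 ± 53.7 CPM to 59.8 ± 18.6 CPM (log2 fold change −1.67, SE 0.27, adjusted p = 0.00439), but its day 3 mean of 211 CPM was not below day 1. Anxa3, an annexin, was likewise higher on day 3 (382 CPM) than on day 1 (200.1) and day 7 (47.4, adjusted p = 0.0407). Plat, the tissue plasminogen activator, was the member that rose, from 182 ± 44 CPM to 449 ± 143 CPM (log2 fold change 1.30, SE 0.27, adjusted p = 0.0144). Without the proliferating cells, 3 of the 26 were called lower. Plaur (over cells with Xist and no Y signal, p 0.073), Anxa3 (10 of 22, p up to 0.116) and Plat (3 of 22, p up to 0.076) lost the call in alternatives.

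The AP-1 motif, TGANTCA on both strands, was found in 7 of 18 genes of this list with a window (38.9%). Of all tested genes with a window, 6.09% held it. Among called genes with a window it was found in 11.9% of those lower and in 4.37% of those higher. Of 21 immediate early genes with a window 0 held it. The promoter of Sprr1a is shown for the gene with the largest fall of the list (minus strand, chr3:92485857-92486056), with AP-1 matches in capitals that begin 146 and 116 bases before the start.
Sprr1a: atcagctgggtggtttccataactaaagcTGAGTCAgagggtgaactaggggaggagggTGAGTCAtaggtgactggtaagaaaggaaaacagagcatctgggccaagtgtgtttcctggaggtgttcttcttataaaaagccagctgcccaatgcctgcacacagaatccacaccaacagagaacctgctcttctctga

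Among intermediate filament genes 0 of 14 were higher and 4 lower, at a median of −0.96. Krt19, a keratin of simple epithelia, fell from 79.4 ± 21.3 CPM to 20.2 ± 15.4 CPM (log2 fold change −1.97, SE 0.52, adjusted p = 0.0394) and Vim, vimentin, fell from 528 ± 106 CPM to 275 ± 30.8 CPM (log2 fold change −0.94, SE 0.16, adjusted p = 0.00569). Krt19 was higher on day 3 (mean 172.5 CPM) than on day 1. The neurofilament genes Nefl and Nefm fell from 9.09 ± 5.09 CPM to 0.0417 ± 0.0400 CPM (log2 fold change −7.67, SE 0.91, adjusted p = 0.00117) and from 49.5 ± 39 CPM to 1.50 ± 0.782 CPM (log2 fold change −5.02, SE 0.60, adjusted p = 0.00117). Both neurofilament genes were nearly absent from all day 7 cultures. The day 3 mean of Nefl, 16.1 CPM, was above that of day 1. Krt8 and Krt18, the main keratins of this epithelium, had means of 937 and 634 CPM (adjusted p = 0.399) and of 684 and 379.6 (adjusted p = 0.203). Krt19 (10 of 22, p up to 0.126) lost the call in alternatives.

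Of 33 junction genes 3 were higher and 5 lower, against 3.55% and 3.56% of all genes, at a median of −0.27. Cdh1, E-cadherin, had 563, 448 and 410.2 CPM on day 1 and 112, 185, 213, 218 and 119.6 on day 7. Cdh1 changed by −1.48 on the log2 scale (SE 0.34, adjusted p = 0.0242). Epcam, an epithelial adhesion protein, fell from 1629.9 ± 342 CPM to 900.2 ± 105 CPM (log2 fold change −0.86, SE 0.18, adjusted p = 0.0164). Cldn1 and Cldn4, claudins of tight junctions, fell from 10.9 ± 1.22 CPM to 0.613 ± 0.563 CPM (log2 fold change −4.15, SE 0.73, adjusted p = 0.00731) and from 383 ± 141 CPM to 134 ± 51.4 CPM (log2 fold change −1.51, SE 0.33, adjusted p = 0.0183). Cldn1 was higher on day 3 (mean 35.2 CPM) than on day 1. Nectin3, an adhesion protein of adherens junctions, fell from 46.3 ± 16.3 CPM to 14.2 ± 6.65 CPM (log2 fold change −1.70, SE 0.39, adjusted p = 0.0241). The risers were Cdh11, a cadherin of mesenchyme and of some epithelia (log2 fold change 1.15, adjusted p = 0.0407), the scaffold Tjp3 (log2 fold change 0.97, adjusted p = 0.0483) and Gja1, connexin 43 (log2 fold change 0.96, adjusted p = 0.0265). Without any of the day 1 cultures none of these 3 rises was called, and the count of lower members was 2, 2 and 3 without day 1 replicates 1, 2 and 3. Cdh1 (3 of 22, p up to 0.096), Epcam (without day 1 replicate 2 and without day 1 replicate 3, p up to 0.0761) and Cldn4 (without day 1 replicate 1 and without day 1 replicate 2, p up to 0.084) lost the call in alternatives. Nectin3 (3 of 22, p up to 0.104), Cdh11 (13 of 22, p up to 0.139) and Tjp3 (17 of 22, p up to 0.175) lost the call in alternatives. Gja1 (7 of 22, p up to 0.101) lost the call in alternatives.

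Matrix genes fell more often than they rose, with 15 of 76 lower and 3 higher, at a median of −0.83. Of 18 collagens, 6 fell and none rose. Col6a1 had 33, 15.6 and 9.28 CPM on day 1 and 2 reads over all day 7 cells, lower by a ratio of 2454, with a 95% counting interval of 679 to 20277 (adjusted p = 0.000282). Fbn2, a fibrillin of embryonic tissue, fell from 209 ± 120.5 CPM to 35 ± 11.9 CPM (log2 fold change −2.57, SE 0.33, adjusted p = 0.00168), and Tnc, tenascin C, fell from 408 ± 215 CPM to 104 ± 40.2 CPM (log2 fold change −1.97, SE 0.49, adjusted p = 0.0307). Timp2, an inhibitor of matrix proteases, fell from 196 ± 33.5 CPM to 70.2 ± 17.9 CPM (log2 fold change −1.48, SE 0.21, adjusted p = 0.00283), and Postn, periostin, fell from 5.08 ± 4.06 CPM to 0.0147 ± 0.0329 CPM (log2 fold change −7.97, SE 1.18, adjusted p = 0.00306). Postn was higher on day 3 (mean 10.7 CPM) than on day 1. Itgb3, an integrin of vitronectin, went to 1 read on day 7 (adjusted p = 0.00919). The risers were Fbln1, Itga9, an integrin chain of tenascin receptors (from 9.06 ± 5.45 CPM to 49.3 ± 25.7 CPM, log2 fold change 2.44, SE 0.57, adjusted p = 0.025), and Mmp2, a gelatinase (from 100.3 ± 4.49 CPM to 175 ± 43.6 CPM, log2 fold change 0.80, SE 0.22, adjusted p = 0.0499). The count of lower members was 9 without day 1 replicate 1 or 3 and 6 without the proliferating cells. Of 10 S100 proteins 3 were lower and none higher, at a median of −2.39, namely S100a6, S100a10 (log2 fold change −1.31, adjusted p = 0.00306) and S100a11 (log2 fold change −1.24, adjusted p = 0.00565). Tnc (5 of 22, p up to 0.128), Postn (over cells with Xist and no Y signal, p 0.0643) and Itgb3 (with the replicate block, p 0.08) lost the call in alternatives. Itga9 (3 of 22, p up to 0.0862) and Mmp2 (19 of 22, p up to 0.15) lost the call in alternatives.

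The label of the cells was checked against tectorial membrane genes and epithelial markers. Tectb was read in 98.7% of day 1 cells and 86% of day 7 cells, so the gene was detected in most cells of both days. Of 15 tectorial membrane and ridge genes, 4 were lower and none higher, at a median of −0.02. Otog, otogelin, fell from 171 ± 43.3 CPM to 62.3 ± 17.8 CPM (log2 fold change −1.45, SE 0.27, adjusted p = 0.00821), and Ano1, a chloride channel of this epithelium, fell from 43.5 ± 4.22 CPM to 7.28 ± 6.42 CPM (log2 fold change −2.58, SE 0.69, adjusted p = 0.0417). Tecta, alpha-tectorin, had 2327 ± 857 and 1546 ± 454 CPM (adjusted p = 0.189), so it did not pass the test while Tectb did. Of 17 genes of ion transport 4 were lower and none higher, at a median of −0.45, among them Car2, a carbonic anhydrase (from 86.1 ± 38.2 CPM to 13.5 ± 7.22 CPM, log2 fold change −2.67, SE 0.43, adjusted p = 0.00476). Ano1 (11 of 22, p up to 0.102) lost the call in alternatives.

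Supporting cell genes were 3 higher and 3 lower of 18, against 3.55% and 3.56% of all genes, at a median of −0.51. The risers were Hey1, Sox9 and Rlbp1, a retinal-binding protein (from 6.53 ± 4.44 CPM to 48.5 ± 33.4 CPM, log2 fold change 2.88, SE 0.71, adjusted p = 0.0306). The fallers were Lgr5, Slc1a3, a glutamate transporter of glia and supporting cells (from 145 ± 5.11 CPM to 57.8 ± 12.9 CPM, log2 fold change −1.33, SE 0.20, adjusted p = 0.00353), and Fabp7 (from 9.03 ± 6.73 CPM to 0.112 ± 0.187 CPM, log2 fold change −6.17, SE 1.31, adjusted p = 0.0168). Of 16 hair cell genes 1 was called, Slc17a8, the vesicular glutamate transporter of inner hair cells, which went from 1.81 CPM to 2 reads on day 7 (adjusted p = 0.0191). The median of the list was −4.78. Atoh1, the factor that starts hair cell fate, had means of 1.67 and 0.763 CPM (adjusted p = 0.781), and Pou4f3, which acts after it, 2.22 and 0.0294 (adjusted p = 0.0618). Rlbp1 (3 of 22, p up to 0.122), Fabp7 (without day 1 replicate 3, p 0.0511) and Slc17a8 (4 of 22, p up to 0.106) lost the call in alternatives.

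Factors of the otic and prosensory epithelium were 4 higher and 3 lower of 17, against 3.55% and 3.56% of all genes. The median was 0.59. Gata3, a factor of otic fate whose loss causes deafness, had 219.7, 296 and 323 CPM on day 1 and 716, 693, 637, 376 and 775 on day 7. Gata3 changed by 1.19 on the log2 scale (SE 0.25, adjusted p = 0.0175). Sox9 rose from 74.5 ± 10.2 CPM to 176 ± 34.6 CPM (log2 fold change 1.24, SE 0.20, adjusted p = 0.00471), and Sp8 is described above. Isl1 fell from 354 ± 82.6 CPM to 141 ± 23.1 CPM (log2 fold change −1.33, SE 0.26, adjusted p = 0.0109) and Eya4 fell from 72.3 ± 17.1 CPM to 28.4 ± 13.7 CPM (log2 fold change −1.35, SE 0.37, adjusted p = 0.0447). Emx2, a homeobox factor, went from 1.07 CPM to 1 read on day 7 (adjusted p = 0.0193). Sox2, which controls the green reporter of the strain (18.3 and 10.7 CPM, adjusted p = 0.207), did not pass the test. Nor did Fgfr3, which controls its Cre (1.43 and 2.69 CPM, adjusted p = 0.759). Gata3 (without day 1 replicate 1 and without day 1 replicate 2, p up to 0.0815), Eya4 (12 of 22, p up to 0.152) and Emx2 (3 of 22, p up to 0.0768) lost the call in alternatives.

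In the integrated stress response list 4 of 22 were higher and 2 lower (median 0.31), with Chac1, a glutathione-degrading enzyme, at 2.36, 47.7 and 17.9 CPM on days 1, 3 and 7 (log2 fold change 2.92, adjusted p = 0.00561). In the list of folding in the endoplasmic reticulum 4 of 14 were higher and none lower (median 0.43), namely Hspa5, Xbp1, Creld2 and Herpud1, a member of the degradation machinery (from 56.3 ± 12.8 CPM to 142 ± 58.1 CPM, log2 fold change 1.33, SE 0.32, adjusted p = 0.0273). The count was 1 without day 1 replicate 1 or 3 and 2 without day 1 replicate 2 or day 7 replicate 4. That of the higher stress response members was 1 without day 1 replicate 1 or 2 or day 7 replicate 3 or 4, and 2 without day 1 replicate 3 or day 3 replicate 1. Heat shock genes were 0 higher and 1 lower of 10 (median 0.11), with Hspb1 from 36.8 ± 15.6 CPM to 10.6 ± 5.72 CPM (log2 fold change −1.79, SE 0.40, adjusted p = 0.0199). Of 14 p53 targets 1 was higher, Btg2 (log2 fold change 1.75, adjusted p = 0.0326), and none lower (median −0.30), against 3.55% and 3.56% of all genes. Glycolysis and hypoxia genes were 1 higher and 4 lower of 31 (median −0.37), with the hypoxia-induced prolyl hydroxylase P4ha2 from 45.1 ± 11.8 CPM to 11.9 ± 2.02 CPM (log2 fold change −1.93, SE 0.27, adjusted p = 0.00263) and the glucose transporter Slc2a1 from 124 ± 17.3 CPM to 64.7 ± 11.4 CPM (log2 fold change −0.94, SE 0.20, adjusted p = 0.0175), and 2 were lower without any 1 of the day 1 cultures. Sterol and fatty acid genes were 1 higher and 1 lower of 39 (median 0.23), near the shares of all genes (3.55% and 3.56%), Srebf1 (log2 fold change 1.71, adjusted p = 0.0152) and Tm7sf2 (log2 fold change −1.26, adjusted p = 0.0242). Lysosome and glutathione genes were 0 higher and 7 lower of 32 (median −0.42), and the count of lower members was 1 without day 1 replicate 2 or 3 and 4 without day 1 replicate 1 or day 7 replicate 4. Of them Nqo1, a quinone reductase induced by Nrf2, had 82, 126 and 234 CPM on day 1 and 3.81, 0.0330, 14.6, 4.22 and 3.57 on day 7 (log2 fold change −4.80, SE 0.88, adjusted p = 0.00852), and Hexa, a lysosomal hexosaminidase, fell from 319 ± 73.2 CPM to 127 ± 54.4 CPM (log2 fold change −1.33, SE 0.29, adjusted p = 0.0201). Herpud1 (4 of 22, p up to 0.114), Xbp1 (6 of 22, p up to 0.168) and Creld2 (15 of 22, p up to 0.355) lost the call in alternatives. Hspb1 (without day 1 replicate 2 and without day 1 replicate 3, p up to 0.0885), Btg2 (4 of 22, p up to 0.115) and Slc2a1 (with the replicate block and without day 1 replicate 2, p up to 0.0759) lost the call in alternatives. Srebf1 (without day 1 replicate 3, p 0.0544), Tm7sf2 (without day 1 replicate 1 and without day 1 replicate 2, p up to 0.102) and Hexa (without day 1 replicate 2 and without day 1 replicate 3, p up to 0.0762) lost the call in alternatives.

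Interferon response genes were 3 higher and 0 lower of 25 (median 0.44), all of antigen presentation and 1 of them called without day 1 replicate 1, with Tap1 rising from 9.82 ± 2.00 CPM to 35.1 ± 4.14 CPM (log2 fold change 1.84, SE 0.27, adjusted p = 0.00306) and Psmb8 from 0.928 ± 0.425 CPM to 7.19 ± 2.46 CPM (log2 fold change 2.95, SE 0.59, adjusted p = 0.0129). Neuronal-type genes were 1 higher and 8 lower of 16 (median −2.46), the riser being Gabrg3, and 5 were lower without day 1 replicate 2. This list too was chosen with earlier results of these data known. Among the fallers, Gap43, a growth cone protein, fell from 23.5 ± 5.34 CPM to 2.00 ± 1.70 CPM (log2 fold change −3.56, SE 0.60, adjusted p = 0.00594) and Uchl1, a neuronal deubiquitinase, fell from 177 ± 14.5 CPM to 78 ± 13.9 CPM (log2 fold change −1.18, SE 0.17, adjusted p = 0.00283). Chromatin regulators were 2 higher and 1 lower of 31 (median 0.43), against 3.55% and 3.56% of all genes. Those that rose were Hdac3 (log2 fold change 0.68, adjusted p = 0.0313) and H1f0 (log2 fold change 1.14, adjusted p = 0.0109). Hdac7 fell (log2 fold change −2.17, adjusted p = 0.0144). Hdac3 and Hdac7 are histone deacetylases, and Hdac3 is of the class that valproic acid inhibits. Ribosomal protein genes were 2 higher and 0 lower of 81 (median 0.10), among them Rpl4, with 10 higher when the deposited table was a term. Nuclear genes of the respiratory chain were 3 higher and 0 lower of 76 (median −0.14), and both they and the ribosomal proteins held a share of higher members near the 3.55% of all genes. Among the 3 was the ATP synthase subunit Atp5a1 (log2 fold change 0.75, adjusted p = 0.00981). None of the 13 mitochondrially encoded genes was called (median 0.23). Psmb8 (over cells with Xist and no Y signal and without day 1 replicate 1, p up to 0.187), Hdac3 (11 of 22, p up to 0.127) and H1f0 (3 of 22, p up to 0.0845) lost the call in alternatives. Hdac7 (3 of 22, p up to 0.183) lost the call in alternatives.

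**Figure D5:**
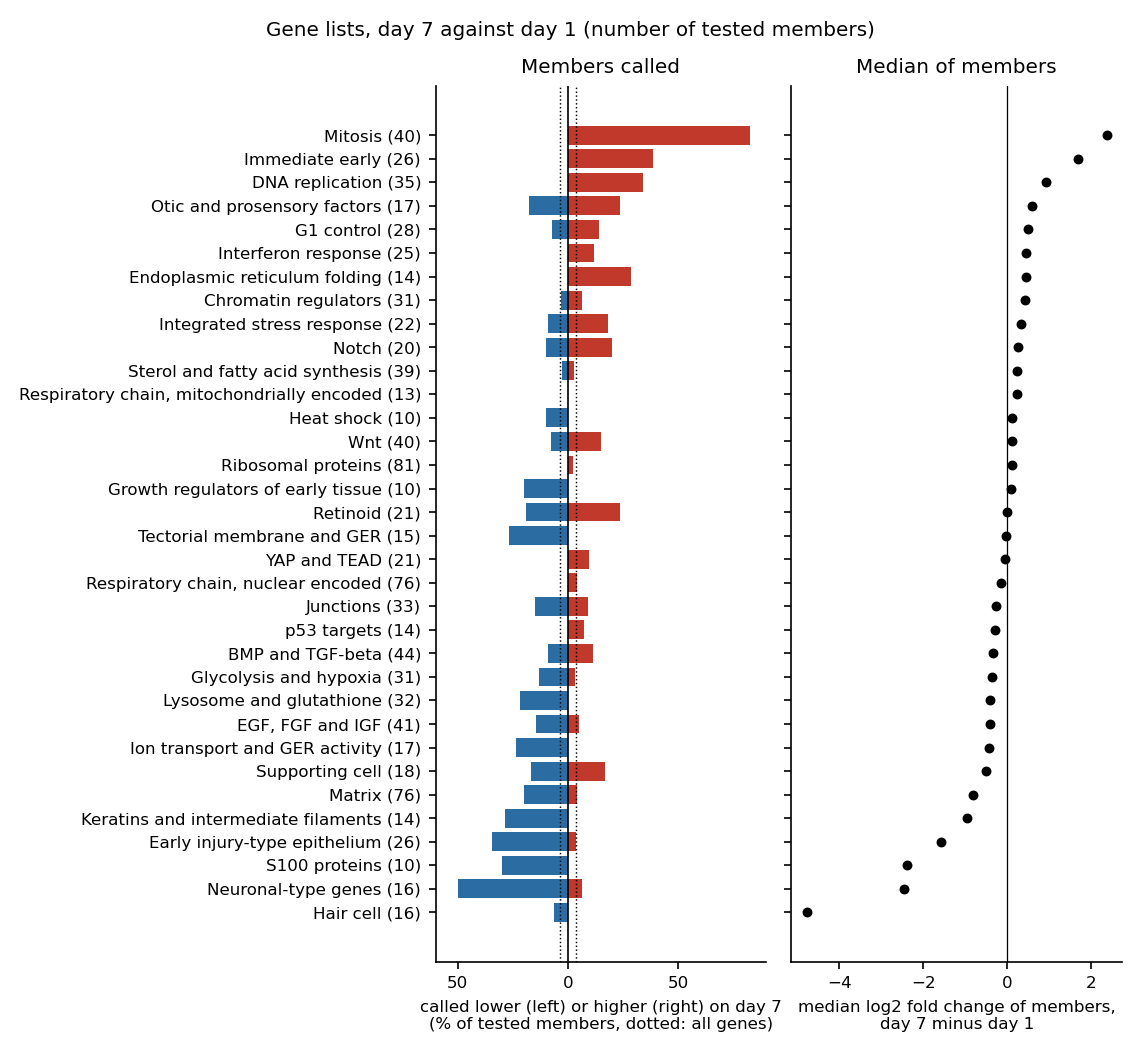
Gene lists ordered by the median log2 fold change of their tested members (right panel, horizontal axis log2, day 7 minus day 1). The left panel gives the percent of tested members called higher (right of 0) or lower (left of 0) on day 7, with dotted lines at the 3.55% and 3.56% of all genes, and the number of tested members stands in brackets. The lists were chosen with earlier results of these data known, so shares beyond the dotted lines are not independent support. The mitosis list, at 33 of 40, has the largest share called higher. The hair cell list has the lowest median, but only 1 of its 16 members was called and several hair cell genes rest on few reads.

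Markers of other cell types were read in the same sums, and their part in the results above was not tested except as stated here. The 6 epithelial markers summed to 4593 to 6910 CPM without TMM scaling on day 1 and 2283 to 4177 on day 7, with Cdh1 and Epcam called lower. The 10 markers of fibroblasts and otic mesenchyme summed to 874 to 994 on day 1 and 382 to 1871 on day 7, nearly all from Lum, which was not called. Of these markers Col3a1 was at 0 on both days, Pou3f4 and Tbx18 were under 1 CPM in every culture, and Col1a2 fell (log2 fold change −5.37, adjusted p = 0.0352). Prrx1 had 0 reads on day 1 and 1208 reads on day 7, at least 194-fold higher against a floor of 3 reads over the group (adjusted p = 0.0117). Twist1 had 3 reads on day 1 and rose 266-fold, with a 95% counting interval of 90.8 to 1289.8 (adjusted p = 0.00707). Both factors are known from mesenchyme. Cdh1 (3 of 22, p up to 0.096), Epcam (without day 1 replicate 2 and without day 1 replicate 3, p up to 0.0761) and Col1a2 (7 of 22, p up to 0.153) lost the call in alternatives. Prrx1 (over cells with Xist and no Y signal, p 0.0728) lost the call in alternatives.

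The 8 neuronal markers summed to 88.8 to 162 CPM without TMM scaling on day 1 and 29.5 to 42.8 on day 7, with Tubb3, Stmn2 and Syt1 called lower. None of the 3 was called without day 1 replicate 2 or day 7 replicate 3. The neuronal-type list, with which these markers share Stmn2, held 8 lower members. Schwann cell and glial markers (7 genes) summed to 33.2 to 55.8 and 17.7 to 46.2, with Foxd3 and Cdh19 at 0 on both days. Endothelial and pericyte markers (7 genes) reached at most 14 on day 1 and 5.19 on day 7, with Pecam1, Kdr and Emcn at 0, and Rgs5 was lower (adjusted p = 0.029). Macrophage and blood markers (8 genes) reached at most 4.41 and 3.20, and melanocyte markers (6 genes) at most 9.06 and 4.14, with Dct, Mlana, Tyr and Tyrp1 at 0. Markers of other epithelium of the cochlear duct (8 genes) summed to 67.1 to 157 on day 1 and 20.0 to 249.6 on day 7, with Otx2 and Kcne1 at 0 on both days. Oc90 of that list had 0 reads on day 7, at least 301-fold lower (adjusted p = 0.0307). Tubb3 (13 of 22, p up to 0.19), Stmn2 (13 of 22, p up to 0.443) and Syt1 (6 of 22, p up to 0.103) lost the call in alternatives. Rgs5 (8 of 22, p up to 0.228) and Oc90 (8 of 22, p up to 0.108) lost the call in alternatives.

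The sex of the cells, read from Xist and 4 genes of the Y chromosome, differed between cultures. A cell with at least 10 reads on the Y genes and fewer on Xist was found in 0 cells of day 1 replicate 1, in 39 of 86 cells of replicate 2 and in 12 of 43 of replicate 3. On day 7 there were 21 of 39, 11 of 37 and 20 of 72 such cells in replicates 1 to 3 and 0 in replicates 4 and 5. None of the 5 tested genes of X inactivation and the Y chromosome was called (median −0.04). In cells with Xist and no Y signal alone, 517 genes were called (191 higher), and of the 92 named genes 63 kept their call. In this subset 14 of the 40 mitosis genes and 1 of the 35 replication genes were called.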

How the data were processed

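The authors deposited expected counts (estimated reads per gene and cell, not normalised, 10.6% of the values above 0 not whole) in 2 tables. The submitters' processing notes name STAR 2.5.3a and RSEM 1.3.0 and the builds mm10 and GRCm38, with no roles given. Counts were rounded per cell here, and kept cells were summed per culture. The test of change was that of edgeR 4.0.16 under R 4.3.3 (TMM, filterByExpr, quasi-likelihood F-test, 1 fit over 11 cultures with day as the only term, Benjamini-Hochberg adjusted p under 0.05), and the test was tried on simulated data. Without molecular identifiers PCR copies count as reads, and counting intervals cover counting error only. Floors are 3 reads over a group.

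Named by rule were the 6 largest rises and falls in fold (no overlap between cultures, mean of at least 20 CPM and a read in at least 20% of cells on the high day) and the 6 largest in CPM. From each list role the called members with the largest rise and the largest fall in log2 fold change were named. These members needed a mean of at least 5 CPM on the high day. Other members were named as examples after their values were seen. The members and lists were chosen with earlier results of these data known. Alternatives used DESeq2 1.42.0 and limma 3.58.1. Coordinates come from GENCODE M21 for the 93.16% of identifiers with the same version. Replicate numbers were not used to pair the cultures of the days in the main fit, and the labels do not say whether they mark separate animals. A comparison to ERCC spike-ins was not run, because 2 of 768 cells held reads on them. The search for the retinoid repeat and the fit over cells with Xist were added after the data were seen. Some called genes are not reported here and enter only the counts and medians.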

Additional observations from a re-analysis of the deposited data

Results flagged for a closer look

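In the day 7 cultures 95 values were checked for a culture that lies far from the other 4, and 10 had one, where chance gives about 1 in 20. Day 7 replicate 5 was high for Malat1 (2110 CPM against 674.8 to 875 in the other 4), Hexa (223.2 against 91.16 to 119.2), Hspb1 (20.5 against 6.042 to 10.06) and Fabp7 (0.4406 against 0 to 0.09033). Its mitochondrial share of 6.757% was also apart from the others. Day 7 replicate 3 was high for Podn (2.349 CPM against 0 to 0.454) and Nqo1 (14.63 against 0.03299 to 4.225). Day 7 replicate 4 was high for Ptgs2 (2.355 CPM against 0 to 0.494), Dlk2 (0.795 against 0 to 0.01807) and Postn (0.07361 against 0 in the other 4). Each of these values except that of the mitochondrial share lay below every day 1 culture. Among data used in no comparison, ERCC spike-in reads were found in 2 of 768 cells, with at most 42 reads in a cell.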

How the results depend on the processing

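Of 25 alternatives for the count of called genes (1241), 15 gave a count within 1.5 times. DESeq2's Wald test called 2318 (1089 higher). The first deposited table alone gave 15 and the second alone 13. Cells not counted as proliferating gave 164 (63 higher), and cells with Xist and no Y signal, a choice made after seeing the data, gave 517 (191 higher). Leaving out 1 culture gave 459 to 1354, with the lowest counts without the day 1 cultures. These settings hold fewer cultures or cells than the full fit. A replicate block gave 1031 (525 higher). Correlations of the deviations of cultures with the same number were 0.0295 to 0.0546. With so few cultures these values cannot decide whether the numbers mark pairs. The block ended the call of 11 of the 92 named genes. No named gene changed direction in any alternative, and 45 were called in all 22 alternatives other than the single tables and the non-proliferating cells. Of those 92, 6 were called within the first table, 7 within the second and 39 in non-proliferating cells. Of 850 list medians under alternatives 132 moved by more than the spread between cultures. The difference in mitochondrial share was 0.923 to 1.83 percentage points without 1 culture, and passed the test (p = 0.0286, exact permutation) without day 7 replicate 4 alone. Of the other alternatives for the measures per culture, 0 moved a value past the threshold. Spike-in alternatives were not run. At 3 against 5 cultures the smallest exact p is 0.0179, and genes near 0 rest on few reads.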
